A study of Mus musculus with 16 samples.

Results

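Basophils and mucosal mast cells are rare granulocytes of the IgE system, and 8 genes that mark them were followed through RNA-seq libraries of lymph node sinus macrophages. The genes were Mcpt8, Mcpt1, Mcpt2, Prss34, Cd200r3, Fcer1a, Ms4a2 and Gata2, that is 8 of the 55421 genes in the count table, and all of them were among the 21085 genes that passed the filter on low counts. They were chosen by name from their levels in these same libraries, so their values are given as a description with no p-value, and counts of members called in the fit over all genes are no independent evidence. Subcapsular sinus macrophages (SSMs, sorted as CD11c-) and medullary sinus macrophages (MSMs, sorted as CD11c+) came from male C57B/6 mice, of no stated age, that carried the squamous cell carcinoma MOC2 in the skin of the flank for 2 weeks. Nodes that drain the tumor (tdLNs) were compared with non-draining nodes (ndLNs) of the tumor-bearing animals, so no group came from a tumor-free mouse. The tumor was placed near the inguinal node, and the ndLNs were contralateral inguinal, axillary and brachial nodes. Tumor drainage and the mix of node sites thus differ together between tdLN and ndLN and cannot be told apart. Each pool held the nodes of 2 mice, 2 tdLNs and 6 ndLNs, and cells were sorted from each kind of node. Each of the 4 groups (SSM ndLN, SSM tdLN, MSM ndLN and MSM tdLN) had 2 pools and therefore 2 libraries. Both subsets were sorted as live CD45+ CD3- B220- Ly6G- CD11b+ CD169+ cells, and none of these gate markers is specific to basophils or mast cells. The gates also took low side scatter for SSMs and high side scatter for MSMs. CD11c and side scatter thus differ together between the subsets and cannot be told apart.

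Basophils and mast cells both carry the high-affinity IgE receptor, an assembly of the alpha chain that binds IgE (Fcer1a), a signal-amplifying beta chain (Ms4a2) and a gamma chain (Fcer1g) that other myeloid cells share. When antigen crosslinks bound IgE, the receptor signals through Lyn and Syk and the cells release granules filled with histamine and serine proteases. Which proteases are stored depends on the cell: Mcpt8 and Prss34 are products of mouse basophils, Mcpt1 and Mcpt2 are chymases of mucosal mast cells, and Cma1, Mcpt4, Tpsb2 and Cpa3 are typical of connective tissue mast cells. Gata2 is a zinc finger transcription factor that both lineages need, and Cd200r3 is an activating member of the CD200 receptor family found on both.

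The libraries held between 42972328 and 48130352 counts, and 3 counts, taken as the floor of detection, corresponded to between 0.0552 and 0.0769 CPM (read counts scaled to library size, with trimmed-mean normalization between libraries). Intervals and floors given here cover counting error only. The labelled cells were checked through summed CPM of marker lists. The 7 macrophage markers summed to 5909 to 9095 CPM in SSM ndLN, 15230 to 22290 in SSM tdLN and 4662 to 5287 in MSMs, while Siglec1, which encodes the sorting marker CD169, was at 8.47 to 15.1 CPM in SSM ndLN, 59.2 to 70.0 in SSM tdLN and 0.795 to 5.96 in MSMs. The 7 connective tissue mast cell markers summed to 1349 to 2470 CPM in SSM ndLN and 154 to 489 in SSM tdLN but to no more than 3.90 in MSMs. The 6 neutrophil markers summed to 22.3 to 254 CPM in SSM ndLN, with Ly6g at 0, and to 175 to 559 in SSM tdLN, and the 6 eosinophil markers to 48.4 to 84.9 CPM, with Epx at 0, and 43.7 to 162. The part of these cells in the results for the 8 genes was not tested, and in bulk samples fewer cells of a type and less RNA per cell cannot be told apart.

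Mcpt8, Mcpt1 and Mcpt2 lie on chromosome 14 within the chymase locus, where Cma1, Mcpt4 and a row of granzyme genes also sit. In GRCm38, Mcpt1 spans chr14:56017971-56020384 (plus strand), Mcpt2 chr14:56042041-56044642 (plus strand) and Mcpt8 chr14:56082166-56085273 (minus strand). Prss34 lies on chr17:25298394-25300165 (plus strand) beside the mast cell tryptases, Cd200r3 on chr16:44943678-44981380 (plus strand), Fcer1a on chr1:173221284-173227214 (minus strand), Ms4a2 on chr19:11615523-11623719 (minus strand) and Gata2 on chr6:88193891-88207032 (plus strand). The windows upstream of the start sites of 4 genes are shown because Mcpt8 and Mcpt1 were highest in SSM tdLN whereas Fcer1a and Ms4a2 were, by group mean, highest in SSM ndLN, and because Gata2 and its relatives bind GATA motifs. Sequences are from RefSeq for GRCm38.p6, read 5′ to 3′ on the strand of the gene, and capitals mark matches on either strand to the motif AGATAA, the motif AGATAG, the motif TGATAA or the motif TGATAG.
Mcpt8, chr14:56085274-56085447, minus strand: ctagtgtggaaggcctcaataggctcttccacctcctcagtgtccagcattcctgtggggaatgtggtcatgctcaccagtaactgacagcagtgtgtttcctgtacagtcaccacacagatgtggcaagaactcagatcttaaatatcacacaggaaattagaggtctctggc
Mcpt1, chr14:56017714-56017963, plus strand: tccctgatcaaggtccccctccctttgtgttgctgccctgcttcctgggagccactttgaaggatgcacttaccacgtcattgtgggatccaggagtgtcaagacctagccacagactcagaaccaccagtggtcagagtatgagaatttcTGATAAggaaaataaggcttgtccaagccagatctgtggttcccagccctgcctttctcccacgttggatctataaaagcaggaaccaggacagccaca
Fcer1a, chr1:173227230-173227479, minus strand: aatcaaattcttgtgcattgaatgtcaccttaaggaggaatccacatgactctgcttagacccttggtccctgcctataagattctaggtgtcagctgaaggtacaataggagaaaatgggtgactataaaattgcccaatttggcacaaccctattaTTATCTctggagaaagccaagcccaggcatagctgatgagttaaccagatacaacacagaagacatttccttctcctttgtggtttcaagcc
Ms4a2, chr19:11623720-11623969, minus strand: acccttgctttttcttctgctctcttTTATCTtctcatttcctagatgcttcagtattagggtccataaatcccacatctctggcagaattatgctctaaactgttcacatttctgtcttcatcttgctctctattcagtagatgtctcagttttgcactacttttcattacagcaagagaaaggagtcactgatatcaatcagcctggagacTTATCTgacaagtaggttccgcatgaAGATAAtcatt
The Ms4a2 window held 3 matches, the Fcer1a and Mcpt1 windows held 1 each and the shorter Mcpt8 window of 174 bases held 0. Of the other members with a promoter in the table, Cd200r3 had 3 matches, Prss34 had 1 and Gata2 had 0, and 7 of the 8 members were in that table. Of all 32851 promoters, 26.5% held at least 1 match within 250 bases upstream, and a match is a description of letters, not of binding.

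Mcpt8, the granule protease most used to mark mouse basophils, was highest in SSMs of tumor-draining nodes. Its level was 20.4 and 23.8 CPM in the SSM tdLN libraries of pools 1 and 2, 1.60 and 3.92 CPM in SSM ndLN, 0.0256 and 0.602 CPM in MSM ndLN, and 0.0242 and 0 CPM in MSM tdLN. Every SSM library lay above every MSM library, and both SSM tdLN libraries lay above both SSM ndLN libraries. The MSM levels rested on 1, 27, 1 and 0 counts, and only MSM ndLN of pool 2 was above the floor of 3 counts.

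Mcpt1, a chymase of mucosal mast cells released into blood and gut lumen during worm infection, was found in SSM tdLN alone. It had 771 and 1363 counts there (17.3 and 31.2 CPM) and 0 counts in each of the other 6 libraries. Mcpt2, its neighbour 24.1 kb from the Mcpt1 start, was found in SSMs of both kinds of node, at 12.4 and 2.36 CPM in ndLN and 5.38 and 23.8 CPM in tdLN, and had 0 counts in all 4 MSM libraries. The SSM groups overlapped for Mcpt2, and pool 1 was the higher in ndLN and the lower in tdLN. Per kilobase of exon, Mcpt1 stood 3.36-fold and 1.37-fold above Mcpt2 in the tdLN libraries.

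Prss34, a basophil tryptase, was high in a single library. It reached 30.3 CPM (1351 counts) in SSM tdLN of pool 1 and 1.27 CPM (69 counts) in SSM ndLN of pool 1, whereas pool 2 had 1 count in tdLN and 0 in ndLN. MSM libraries held 1 count in all. Prss34 thus split by pool number and not only by node. The study describes each pool as giving cells from both kinds of node. The labels do not state outright that tdLN and ndLN of 1 number came from the same mice. None of its transcript windows of 50 bases occurred in another annotated gene.

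**Figure D1:**
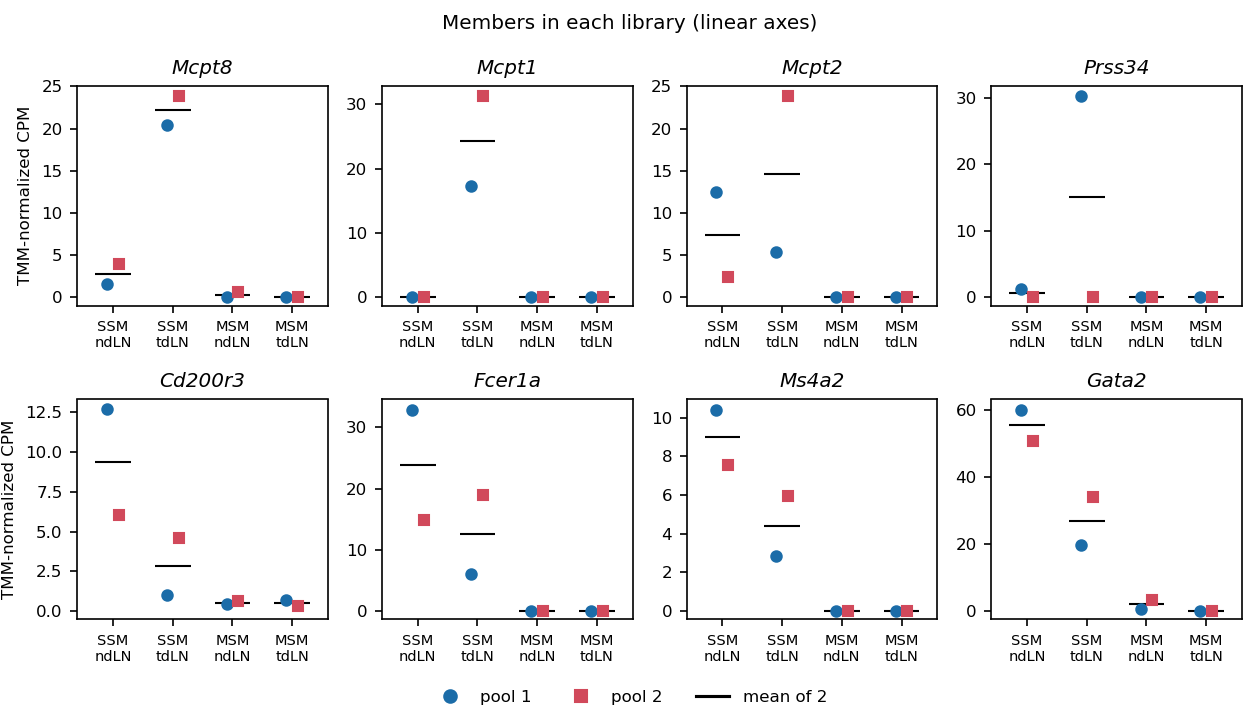
Normalized CPM of the 8 genes in each of the 8 libraries on linear axes, with circles for pool 1, squares for pool 2 and a bar for the mean of 2 libraries. Mcpt8 and Mcpt1 peak in SSM tdLN (20.4 and 23.8 CPM, 17.3 and 31.2 CPM), Gata2, Ms4a2 and Cd200r3 are highest in both SSM ndLN libraries, Prss34 is high in 1 library (30.3 CPM), and the MSM columns sit near 0.

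Fcer1a, the IgE-binding chain, was at 32.9 and 14.9 CPM in SSM ndLN and at 6.12 and 18.9 CPM in SSM tdLN, so the groups overlapped. MSMs were at the floor, with 2 and 1 counts in ndLN and 0 and 0 in tdLN. Ms4a2, the beta chain, was at 10.4 and 7.56 CPM in SSM ndLN, 2.85 and 5.96 CPM in SSM tdLN and 0 counts in all 4 MSM libraries. Both chains were lowest among SSMs in tdLN of pool 1, the library in which Prss34 was highest. Per kilobase, Fcer1a exceeded Ms4a2 by 8.91-fold and 5.55-fold in SSM ndLN and by 6.06-fold and 8.93-fold in SSM tdLN, so the ratio of the chains overlapped between nodes. Of the Ms4a2 windows of 50 bases, 2.10% were shared with Ms4a4b, a gene of the same family, and counts in that stretch are uncertain. The gamma chain Fcer1g, by contrast, was found in every library, at 984 and 567 CPM in SSM ndLN, 1508 and 1449 CPM in SSM tdLN and 180 to 364 CPM in MSMs.

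Cd200r3 was at 12.7 and 6.04 CPM in SSM ndLN and at 1.01 and 4.61 CPM in SSM tdLN. It was the only member with more than 10 counts in each MSM library, at 0.410 and 0.646 CPM in ndLN and 0.679 and 0.330 CPM in tdLN (15 to 29 counts). In the sequence of its transcripts, 2.79% of 50-base windows also occurred in other annotated transcripts. Its paralog Cd200r4, which encodes another activating receptor of the family, was at 31.2 and 24.1 CPM in SSM ndLN, 16.4 and 21.3 CPM in SSM tdLN and no more than 1.67 CPM in MSMs.

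Gata2 was at 60.0 and 50.8 CPM in SSM ndLN and at 19.5 and 34.0 CPM in SSM tdLN, so both tdLN libraries lay lower. In MSMs it was at 0.462 and 3.41 CPM in ndLN (18 and 153 counts) and had 1 and 0 counts in tdLN. Gata1, a related factor of the same lineages, was low throughout, at 2.54 and 1.70 CPM in SSM ndLN, 0 and 1.31 CPM in SSM tdLN and no more than 3 counts in any MSM library.

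Levels of different genes were compared per kilobase of exon, as means of 2 libraries with their SD. In SSM ndLN the order was Fcer1a (23.9 ± 12.8 CPM per kb), Gata2 (10.3 ± 1.22), Mcpt2 (6.97 ± 6.71), Ms4a2 (3.19 ± 0.716), Mcpt8 (2.77 ± 1.65), Cd200r3 (1.56 ± 0.785), Prss34 (0.520 ± 0.736) and Mcpt1 (0). In SSM tdLN the order was Mcpt1 (23.9 ± 9.74 CPM per kb), Mcpt8 (22.2 ± 2.40), Mcpt2 (13.8 ± 12.3), Fcer1a (12.5 ± 9.05), Prss34 (12.4 ± 17.5), Gata2 (4.96 ± 1.90), Ms4a2 (1.57 ± 0.782) and Cd200r3 (0.469 ± 0.425). Most neighbours differed by less than the larger of their SDs, the exceptions being Fcer1a over Gata2 and Cd200r3 over Prss34 in ndLN and Gata2 over Ms4a2 and Ms4a2 over Cd200r3 in tdLN. Mcpt1 was thus last in ndLN and first in tdLN.

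To describe how the members separated the subsets, SSMs were set against MSMs within each kind of node. A gene counted as called when edgeR's quasi-likelihood test, Benjamini-Hochberg adjusted over all genes tested, gave a value under 0.01 and the mean normalized count exceeded 100 per lane. The study used the same numbers on Holm-adjusted values of a likelihood ratio test, so its calls were set on another scale. It also modelled 16 samples from 4 pools, named as biological replicates, whereas the labels show 8 libraries run on 2 lanes each. Only 5 of the 8 members reached that mean, so Prss34, Cd200r3 and Ms4a2 could not be called. In ndLN, 2 members (Fcer1a and Gata2) were called higher in SSMs, against 6.01% of all genes tested called higher and 6.06% called lower. For 6 members, all but Mcpt1 and Prss34, both SSM ndLN libraries lay above both MSM ndLN libraries, an order that 30.7% of all genes tested showed and 26.5% showed in reverse. In tdLN, 3 members (Mcpt8, Mcpt1 and Gata2) were called higher in SSMs, against 5.16% of all genes called higher and 3.53% lower, and all 8 members were higher in both SSM libraries, as were 29.5% of all genes, with 27.1% lower. The DESeq2 Wald test instead called Mcpt8, Mcpt2, Fcer1a and Gata2 higher in SSMs in each kind of node, and not Mcpt1. It called 17.4% of all genes tested in ndLN and 14.2% in tdLN, both directions together. The contrasts of SSMs and MSMs are among the values that chose the members, so nothing is read from the counts. In ndLN the Gata2 call held in all 8 fits that left out 1 library each, and the Fcer1a call was lost without either MSM ndLN library. In tdLN the Mcpt8 call was lost without either SSM library, the Mcpt1 call without any 1 of the 4 tdLN libraries, and the Gata2 call without either MSM library or the SSM library of pool 2.

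The sizes of these differences were large where MSMs had counts to compare with. Gata2 was higher in SSMs by 4.86 on the log2 scale in ndLN (SE 0.52; 55.4 against 1.94 CPM) and by a ratio of 2314 in tdLN (95% counting interval 415 to 91430), where MSMs held 1 count. Fcer1a was 680-fold higher in ndLN (counting interval 232 to 3300) and at least 180-fold higher in tdLN, a bound set by 3 counts per MSM library. Ms4a2 was at least 125-fold higher in ndLN and at least 63.5-fold in tdLN, and Mcpt2 at least 103-fold and 211-fold. Mcpt1 was at least 350-fold higher in tdLN, and in ndLN neither subset had a count. Mcpt8 differed by 3.04 on the log2 scale in ndLN (SE 0.78; 2.76 against 0.314 CPM) and by a ratio of 1918 in tdLN (counting interval 344 to 75790). Cd200r3 was higher in SSMs by 4.11 (SE 0.85) in ndLN and by 2.50 (SE 1.06) in tdLN on the log2 scale. For Prss34 the separation in tdLN rested on the library of pool 1, and without the ndLN library of pool 1 its fitted difference in ndLN changed sign, with values from -1.09 to 6.42 on the log2 scale over the 8 fits that each left out 1 library.

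Within SSMs, the order of tumor-draining and non-draining nodes was described member by member. Mcpt8 and Mcpt1 were called higher in tdLN, against a background of 1.98% of all genes called higher and 1.05% called lower. The same 2 members were the ones with both tdLN libraries above both ndLN libraries, an order shown by 25.6% of all genes. Cd200r3, Ms4a2 and Gata2 lay lower in both tdLN libraries, as did 26.3% of all genes. Gata2 was not called by edgeR or DESeq2, while Cd200r3 and Ms4a2 were under the mean count that a call requires and could not be called. Mcpt2, Prss34 and Fcer1a overlapped between the nodes. Both orders were common among all genes, and the members were chosen from their levels in these libraries, so nothing is read from these counts.

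Mcpt8 was higher in SSM tdLN by 3.06 on the log2 scale (SE 0.38), at 22.1 ± 2.40 CPM against 2.76 ± 1.64 CPM (SD, n = 2 each). Mcpt1, at 24.3 ± 9.87 CPM, was at least 419-fold above SSM ndLN, where 3 counts per library set the bound. On the log2 scale Gata2 was at -1.12 (SE 0.38; 26.8 against 55.4 CPM), Ms4a2 was at -1.05 (SE 0.44; 4.40 against 8.98 CPM), Cd200r3 at -1.73 (SE 0.61; 2.81 against 9.37 CPM) and Fcer1a at -0.96 (SE 0.58; 12.5 against 23.9 CPM). Mcpt2 was at 0.89 (SE 0.99; 14.6 against 7.40 CPM) and Prss34 at 4.57 (SE 0.51; 15.2 against 0.634 CPM), and the groups of both overlapped. For Prss34 this value rested on pool 1, as pool 2 held 1 count in tdLN and 0 in ndLN. Its SE does not show that split. Over the 8 fits that each left out 1 library, Prss34 ranged from 1.745 to 4.581. When 1 library at a time was left out, Mcpt8 stayed between 2.52 and 3.78 on the log2 scale but was not called in any of the 8 fits, and Mcpt1 was called in 4 of the 8, those without an MSM library. Over the same fits the sign of Mcpt2 turned (-1.21 to 3.33) and so did that of Fcer1a (-2.43 to 0.34), in each case when an SSM library was left out.

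The connective tissue mast cell proteases gave a yardstick within each SSM library, because most of them kept similar ratios to each other. Relative to Cpa3, a carboxypeptidase of mast cell granules, Cma1 was at 1.19 to 1.40, Mcpt4 at 1.10 to 1.39 and Tpsb2 at 1.01 to 1.23 per kilobase across the 4 SSM libraries of both nodes. The tryptase Tpsab1 varied more, from 0.0711 to 0.134. All members had higher ratios to Cpa3 in tdLN than in ndLN except Prss34, whose pools split. Mcpt8 stood at 0.00433 and 0.0192 of Cpa3 in SSM ndLN and at 0.861 and 0.320 in SSM tdLN. Mcpt1 went from 0 and 0 to 0.716 and 0.413, and Mcpt2 from 0.0316 and 0.0109 to 0.213 and 0.301. The shift was smaller for the genes of the receptor and the transcription factor. Fcer1a stood at 0.0890 and 0.0727 of Cpa3 in ndLN and 0.258 and 0.254 in tdLN, and Gata2 at 0.0300 and 0.0459 in ndLN and 0.152 and 0.0845 in tdLN. Cd200r3, at 0.00572 and 0.00492 in ndLN and 0.00709 and 0.0103 in tdLN, shifted least. Since Cpa3 itself was at 562 and 311 CPM in SSM ndLN and 36.1 and 113 CPM in SSM tdLN, a higher ratio does not mean a higher level. Which cells gave the Cpa3 counts was not tested, so the ratios are not ratios of cell types.

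**Figure D2:**
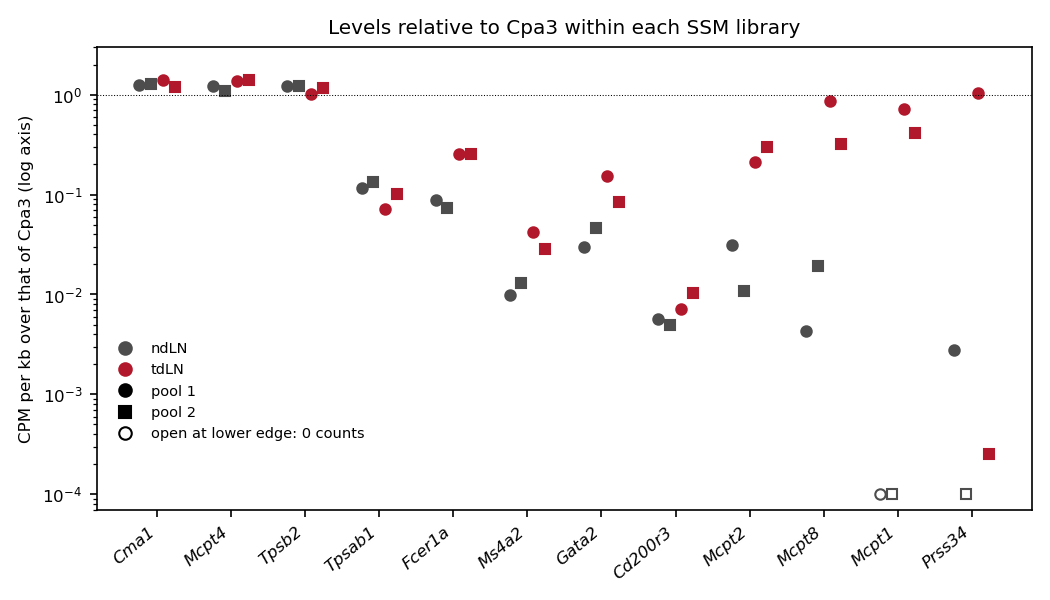
CPM per kilobase of each gene divided by that of Cpa3 in the same SSM library, on a log axis, with gray for ndLN, red for tdLN, circles for pool 1 and squares for pool 2. Open symbols at the lower edge stand for 0 counts. Cma1, Mcpt4 and Tpsb2 stay between 1.01 and 1.40 in both nodes, whereas Mcpt8 moves from at most 0.0192 in ndLN to 0.320 and 0.861 in tdLN.

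The composition of granule protease transcripts therefore differed between the nodes. Of the summed CPM per kilobase of 9 mast cell and basophil proteases, the 4 member proteases Mcpt8, Mcpt1, Mcpt2 and Prss34 made up 0.798% and 0.631% in SSM ndLN and 36.9% and 17.6% in SSM tdLN. Their own sum was 14.4 and 6.16 CPM per kb in ndLN and 67.4 and 77.2 in tdLN, while that of all 9 was 1800 and 976 in ndLN and 183 and 439 in tdLN. Both a larger member sum and a smaller total thus entered the shares. In tdLN of pool 1, Prss34 alone made up 13.6% and Mcpt8 11.2%, and in pool 2 the largest member share was that of Mcpt1 at 7.03%.

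**Figure D3:**
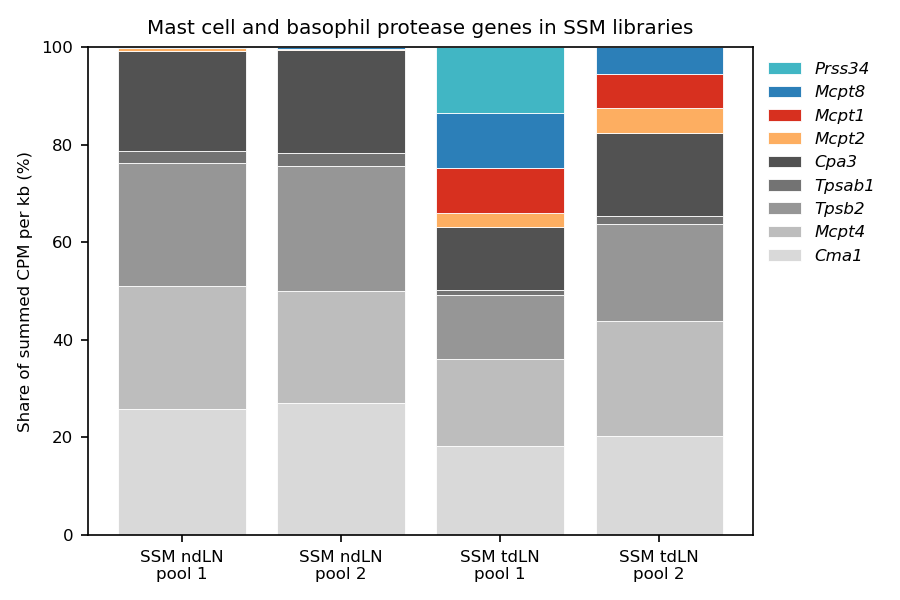
Stacked bars of the share, in percent, that each of 9 protease genes takes of their summed CPM per kilobase in the 4 SSM libraries, with the 4 member genes in color and the connective tissue mast cell genes in gray. The colored part is under 1% in both ndLN libraries (0.798% and 0.631%) and is 36.9% and 17.6% in the tdLN libraries.

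Neighbouring genes of the chymase locus did not share the order of Mcpt8 and Mcpt1. Mcpt4, which lies between Mcpt2 and Mcpt8 at 41.7 kb from the start of Mcpt1, was at 504 and 249 CPM in SSM ndLN and 36.2 and 115 CPM in SSM tdLN. Cma1 was at 506 and 288 CPM in SSM ndLN and 36.3 and 96.5 CPM in SSM tdLN, and Mcpt9, 8.89 kb from Mcpt1, had 0 counts in all 8 libraries. Of the 12 neighbours in the locus, 8 passed the filter, and edgeR called 0 of these between the nodes in SSMs, with 4 of 8 at an unadjusted p under 0.05 against 23% of all genes tested, and 1 called by DESeq2 against 9.16% of all genes. In SSMs, 4 of the 12 neighbours were at or under the floor in both nodes. Of the other 8, 7 were lower in both tdLN libraries, as were 26.3% of all genes tested. Some of these 7 were at or under the floor in tdLN. Mcpt8 and Mcpt4, neighbours in the locus, thus stood in opposite order in the same libraries.

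**Figure D4:**
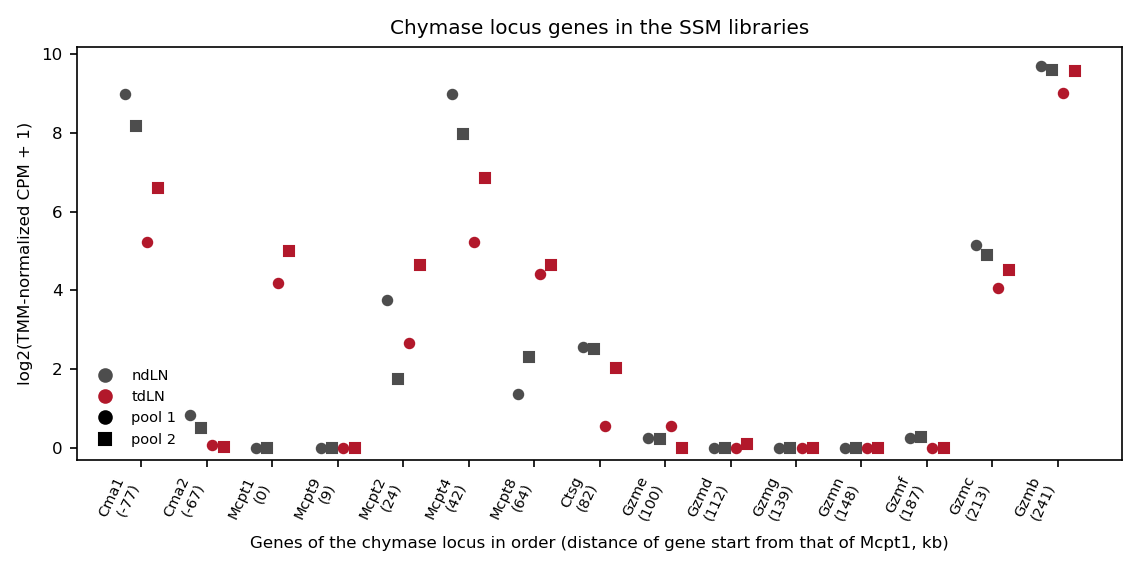
Level, as log2 of CPM plus 1, of the genes of the chymase locus in order along chromosome 14, with the distance of each gene's start from that of Mcpt1 in kb. Gray marks SSM ndLN, red SSM tdLN, circles pool 1 and squares pool 2. Red symbols lie above gray for Mcpt1 and Mcpt8 and below gray for Cma1 and Mcpt4, with Mcpt2 mixed.

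Among MSMs the members were too low for most comparisons between nodes. None of the 8 was called by edgeR, which called 0.00474% of all genes higher and 0.0190% lower in tdLN. DESeq2, which called 496 of the 21085 genes (2.35%) in this contrast, called Gata2 lower in tdLN. Gata2 was 177-fold lower in tdLN (counting interval 31.3 to 7020) and Mcpt8 28.9-fold lower (counting interval 4.78 to 1183), in both cases against 1 count in tdLN. With Fcer1a, at 3 counts in ndLN and 0 in tdLN, they were the 3 members lower in both tdLN libraries, as were 18.1% of all genes, while 20.4% were higher. Most counts of Gata2 and Mcpt8 in MSM ndLN came from pool 2, with 153 of 171 and 27 of 28. Cd200r3 differed by -0.11 on the log2 scale (SE 1.53) and the other members were at or under the floor in both nodes.

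The wider IgE receptor and granule program was followed through 73 companion genes in 6 lists, of which 69 passed the filter. The lists were chosen with earlier results of these data known, so their calls and p-values are no independent evidence. Between SSMs and MSMs, 27 were called higher and 4 lower in ndLN, and 23 higher and 2 lower in tdLN, against the 6.01% higher and 6.06% lower of all genes in ndLN and 5.16% and 3.53% in tdLN given above. Markers of some other cells were also higher in SSMs. The summed B cell markers overlapped between the subsets in ndLN, and the summed eosinophil markers overlapped in tdLN. The 5 NK cell markers summed to 994 to 1667 CPM in SSMs and 10.1 to 40.5 CPM in MSMs, and the 6 ILC2 markers to 333 to 1154 CPM in SSMs and 31.0 to 64.0 CPM in MSMs. Some companion genes, such as Gzmc, Il18r1 and Gata3, are also genes of those cells, and the part of those cells in the counts was not tested. Of the 8 connective tissue mast cell genes, 7 were called higher in SSM ndLN and 5 in SSM tdLN, with a median of 9.23 and 8.59 on the log2 scale (undetected genes at their bound) against 0.09 and 0.02 over all genes tested. Of the 18 genes of receptor signalling, 5 were called higher and 2 lower in ndLN and 7 higher in tdLN. Lat, an adaptor shared with T cells, was higher in SSMs by 3.54 (SE 0.19) in ndLN and 5.43 (SE 0.23) in tdLN on the log2 scale (edgeR, adjusted p = 2.94e-05 and 3.48e-05), and the 6 T cell markers summed to 763 to 808 CPM in SSM ndLN and 410 to 484 in SSM tdLN against 15.0 to 100 in MSMs, whose part in this was not tested. Il4, the cytokine that basophils and mast cells release, was at 26.5 and 9.96 CPM in SSM ndLN, 7.20 and 42.5 CPM in SSM tdLN and no more than 0.379 CPM in MSMs (edgeR, adjusted p = 0.00765 in ndLN and 0.00733 in tdLN). Its calls were lost when any 1 of the 4 MSM libraries was left out, and in tdLN also without SSM tdLN of pool 2, with an adjusted p of 0.000361 to 0.0969 in ndLN and 0.000386 to 0.164 in tdLN over the 8 fits.

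Between the nodes of SSMs, 8 companion genes were called higher in tdLN (Lyn, Btk, Ptpn6, Csf2rb, Osm, Cebpa, Lmo2 and Spi1) and 4 lower (Il18r1, Kit, Cpa3 and Gata3). Of all genes tested, 1.98% were called higher and 1.05% lower. The genes called higher included Ptpn6, the phosphatase SHP-1 of myeloid cells, by 1.36 on the log2 scale (SE 0.12; edgeR, adjusted p = 0.00192), and Cebpa, a factor of the granulocyte and macrophage lineages, by 2.43 (SE 0.32; adjusted p = 0.00497), and the macrophage markers given above were higher in the same libraries, whose part in these calls was not tested. Kit, the stem cell factor receptor of mast cells, fell by 2.61 (SE 0.23; edgeR, adjusted p = 0.00192) and Cpa3 by 2.69 (SE 0.47; adjusted p = 0.00893). Gata3 and Il18r1 are also expressed by ILC2s, whose 6 markers summed to 914 to 1154 CPM in SSM ndLN and 333 to 377 CPM in SSM tdLN, and their part in these calls was not tested. Kit was also at 269 to 615 CPM in MSMs, where the mast cell proteases were near 0. All 8 connective tissue mast cell genes lay lower in both tdLN libraries, an order shown by 26.3% of all genes tested. Their median was -2.79 on the log2 scale against -0.04 over all genes tested, and 1 of them was called. Of the 12 genes called, between 0 and 5 were still called when 1 library was left out, with 0 of them without either SSM tdLN library and 1, Cpa3, without SSM ndLN of pool 2. The adjusted p over those 8 fits was 0.00458 to 0.0438 for Kit, 0.000213 to 0.0665 for Cpa3, 0.00686 to 0.0438 for Ptpn6 and 0.0116 to 0.0746 for Cebpa. Between the nodes of MSMs, edgeR called 0 companion genes, with 21 of 69 at an unadjusted p under 0.05 against 11.9% of all genes tested, and DESeq2 called 7 against 2.35% of all genes. The interaction of subset and node gave 0 calls with edgeR and 23 genes at an unadjusted p under 0.05, against 12.3% of all genes. DESeq2 called 13 for the interaction against 3.21% of all genes, so a difference between subsets in the response of these genes to the draining node depended on the test.

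Genes with the most similar pattern were sought by the root mean square difference between centered log2(CPM + 1) profiles over the 8 libraries among 9991 other genes. The nearest to Mcpt8 were Lrg1 (0.59), Mtus1, Tmem37, F10 and Fpr2, and the nearest to Mcpt1 were Lrg1 (0.62), Lifr, Clec5a, Saa3 and Clec4a2. Lrg1, a secreted glycoprotein, was at 33.6 and 30.3 CPM in SSM tdLN and 0.242 to 2.70 CPM elsewhere. The nearest to Fcer1a were Cyp11a1 (0.34), Alox5, Tph1, Rab44 and Ccl1. Cyp11a1, a steroid-producing enzyme, was at 36.3 and 28.2 CPM in SSM ndLN, 4.84 and 27.1 CPM in SSM tdLN and no more than 0.0513 CPM in MSMs, so it shared with Fcer1a the low value in tdLN of pool 1. Among the members themselves, the closest pair was Cd200r3 and Ms4a2 (0.55), followed by Fcer1a and Ms4a2 (0.64), and the most distant was Prss34 and Gata2 (2.43). Mcpt8 and Mcpt1 (0.83) were closer to each other than either was to Fcer1a (1.53 and 2.17).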

How the data were processed

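The deposited table holds raw read counts per Ensembl gene. Per the labels, the authors converted RNA with the SMART-Seq v4 kit and sequenced the libraries on an Illumina instrument, and the submitters' processing notes name bcl2fastq 2.20.0.422, Trimmomatic 0.36, STAR 2.5.3a and GRCm38. The strand setting of the counting is not given in the sources used here. The 16 samples are 8 libraries, each run on lanes 3 and 4. Lanes differed by no more than sampling noise (chi-square per degree of freedom 0.955 to 1.02, against 29.3 to 53.1 between libraries) and were summed, so n = 2 per group. The p-values rest on the spread between libraries that is left after the terms of the fit, estimated over all 8 libraries together.

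Rows numbered 55423, of which 2 added sequences (6 counts) were left out, and 55240 IDs matched GENCODE M21. Genes with a total of at least 10 counts, detected in at least 2 of the 16 samples, were tested (21085) with edgeR 4.0.16 (R 4.3.3, quasi-likelihood, trimmed mean of M values, factors 0.902 to 1.15, group and pool as terms), with Benjamini-Hochberg adjustment. Calls required adjusted p under 0.01 together with more than 100 normalized counts per lane on average. Standard errors are those implied by the F statistic. Alternatives were no pool term, DESeq2 1.42.0 size factors or Wald test, no low-count filter, each lane alone and each library left out. The code was tested on simulated data. The pool number comes from the node labels, under which the SSMs and MSMs of a number share their nodes. Deviations of same-numbered libraries correlated with r = -0.186 to 0.15 over the 6 pairs of groups.

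The members and lists were chosen with earlier results of these data known. Besides the members, genes named were Fcer1g, Kit, Cpa3, Gata1 and Siglec1, the 2 largest called changes of each list and contrast, and the 5 genes nearest in pattern to Mcpt8, Mcpt1 and Fcer1a. Mcpt9, Ms4a4b, Tpsb2, Tpsab1, Lyn, Syk, Csf2rb, Spi1 and the markers at 0 were named after their values were seen. A ratio against 1 to 3 counts carries a 95% counting interval, and a bound uses 3 counts per library.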

Additional observations from a re-analysis of the deposited data

Results flagged for a closer look

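Mean levels of Mcpt8 stood in opposite order between the nodes in SSMs and MSMs, but the MSM side lay near the floor. In SSMs both tdLN libraries (mean 22.1 CPM) lay above both ndLN libraries (mean 2.76 CPM). In MSMs both tdLN libraries (mean 0.0121 CPM) lay below both ndLN libraries (mean 0.314 CPM). In pool 1 the MSM libraries of both nodes held 1 count each (0.0256 CPM in ndLN and 0.0242 CPM in tdLN), so their order came from library size alone, and 27 of the 28 counts in MSM ndLN came from pool 2. This difference was not tested, because the gene was chosen with its values known.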

How the results depend on the processing

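The number of libraries, 2 per group, limits these results, although every library held at least 42972328 counts. In MSMs, the low counts of most members limit the comparisons as well. The pool term moved little: with no replicate block the calls between nodes in MSMs were 9 in place of 5, and the block changed no other count of calls by more than 1.5 times and no member call except Fcer1a in SSM against MSM tdLN, called without it. The DESeq2 Wald test called 2989 genes in place of 1833 for SSM against MSM in tdLN, 1932 in place of 639 between nodes in SSMs, and 496 between nodes in MSMs, with 27 companion genes in place of 12 in SSMs, 7 in place of 0 in MSMs and 13 in place of 0 for the interaction. Lanes 3 and 4 alone called 24 and 17 genes between nodes in MSMs and 1 companion gene each. With 1 library left out, which leaves a group with a lone library assumed to vary like the others, genes called ranged from 1082 to 2022 of 2545 for SSM against MSM in ndLN, from 507 to 1867 in tdLN, from 2 to 345 between nodes in SSMs and from 0 to 3 in MSMs. Companion genes called then ranged from 20 to 30, from 7 to 28 and from 0 to 5 in the first 3 of these comparisons. The DESeq2 Wald test called Mcpt8 but not Mcpt1 between nodes in SSMs, and the cause was not tested. Of 26 member differences, 26 moved by less than the spread between replicates without the block, with no filter on low counts and with DESeq2 size factors, and 7, 8 and 7 moved by more with the DESeq2 Wald test, lane 3 and lane 4. Over all fits that left out 1 library, 54 member differences moved by more than that spread and 154 did not.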
